A study of Mus musculus with 26 samples.

Results

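The interaction of the Mst-1 and galectin-3 genotypes in the mouse left ventricle was measured over 26 RNA sequencing libraries and 15249 genes, which are all libraries and all genes of the count table. For each gene, the Mst-1 response was measured with galectin-3 intact (the log2 ratio of the group labelled MstTg to the group labelled wt) and in the galectin-3 knockout (the log2 ratio of Mst1Gal3 to Gal3Ko). The interaction is the second response minus the first, so that 0 means equal responses. The wt group held 6 libraries of wild type mice and the MstTg group held 7 libraries of mice that overexpress Mst-1, a model of dilated cardiomyopathy according to the study's design text. The Gal3Ko group held 8 libraries of galectin-3 knockout mice, and the Mst1Gal3 group held 5 libraries of mice that carry both the Mst-1 transgene and the knockout. All 4 groups have C57BL6 as the labelled background strain and no treatment is labelled. The promoter and cell type that drive the transgene, the design of the knockout allele, and the age and sex of the mice were not given in the sources used here. The labels number the libraries as replicates without saying that each came from a separate animal, so p-values measure the spread between these libraries.

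Mst-1 is a serine/threonine kinase of the Hippo pathway, encoded by Stk4, which restrains growth and promotes death of cardiac muscle cells. Galectin-3, encoded by Lgals3, is a secreted and intracellular lectin that binds beta-galactosides and is made in quantity by macrophages of injured tissue, where it is known for its association with fibrosis. Interferon-inducible genes, which form the largest group in the results here, are switched on when a transcription factor complex that holds Stat2 and Irf9 binds a short element in their promoters, and Irf7 in turn amplifies interferon production.

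Total counts per library ran from 18580405 to 32663735. Levels are given as CPM (counts scaled to a common library size with edgeR's TMM factors), and at the smallest total 1 count was worth 0.0538 CPM before that scaling. The ventricular light chain gene Myl2 was at 1890 CPM or more in every library. An atrial sum was taken over 4 genes, of which Bmp10 was absent from the table. In this sum 6 libraries exceeded 30 CPM (wt replicate 5, MstTg replicate 5, Gal3Ko replicates 4, 5 and 8, and Mst1Gal3 replicate 3). Counts of interaction calls, of interferon list calls and of calls for Gal3Ko against wt are given below without these libraries as well. Mitochondrially encoded transcripts made up a mean of 31.0% of counts in wt, 17.7% in MstTg, 33.0% in Gal3Ko and 18.7% in Mst1Gal3. Across 15 measures of depth, composition and cell type markers, the difference of the Mst-1 responses passed a permutation test over libraries for 1, the sum of the measured neutrophil markers (adjusted p = 0.00255). That sum rests on 3 of 12 listed genes, among them Mmp9, which is described below, and S100a8, S100a9 and Ly6g were absent from the table. In bulk tissue, fewer cells of a type and less RNA per cell cannot be told apart.

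The 2 Mst-1 groups overlapped in the level of the overexpressed gene. Stk4 (chromosome 2, 164070322 to 164155524, GRCm38) ran from 22.4 to 26.1 CPM in wt and from 846 to 1070 CPM in MstTg, with a median of 943 CPM. It ran from 21.0 to 25.9 CPM in Gal3Ko and stood at 840, 943, 955, 978 and 1170 CPM in the 5 Mst1Gal3 libraries. The Mst-1 groups overlapped each other and lay far above the other 2, and the interaction for Stk4 was 0.07 ± 0.10 (log2, SE; edgeR quasi-likelihood adjusted p = 0.826). The 95% interval of the interaction for Stk4 ran from -0.13 to 0.26.

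Lgals3, the gene targeted in the knockout, had the largest absolute fitted interaction of the 100 genes called. It lies on chromosome 14 (47367751 to 47386160, plus strand). Its level was 0.878 to 2.41 CPM in wt and 50.9 to 60 CPM in MstTg, a 33.7-fold rise. Gal3Ko libraries held 1.47 to 2.74 CPM, and the Mst1Gal3 libraries held 2.54, 3.58, 3.88, 4.13 and 5.43 CPM. Gal3Ko overlapped wt, Mst1Gal3 lay above wt and far below MstTg, and no knockout library was at 0. The interaction was -4.22 ± 0.21 (adjusted p = 1.32e-14). In the 2 groups without the transgene, Lgals3 did not differ beyond the spread (Gal3Ko against wt 0.41, adjusted p = 0.619), so the label of the knockout is visible in Lgals3 levels where Mst-1 is overexpressed. Which exons the reads came from was not tested, since the table counts whole genes.

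The interaction was called for few of the genes that responded to Mst-1 overexpression. The edgeR quasi-likelihood test with Benjamini-Hochberg adjustment called 4302 genes higher (28.2% of those tested) and 4083 lower (26.8%) in MstTg than in wt. In the knockout it called 4108 higher (26.9%) and 3905 lower (25.6%). The interaction passed the adjusted p of 0.05 for 100 genes (0.656%), of which 56 lay below 0 (0.367%) and 44 above 0 (0.289%). The knockout itself changed 54 genes without the transgene (Gal3Ko against wt, 0.354%) and 746 genes with it (Mst1Gal3 against MstTg, 4.89%), of which 387 were higher (2.54%) and 359 lower (2.35%). At an unadjusted p below 0.05 the interaction count was 1857, and at an adjusted p below 0.1 it was 211.

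Genes with a mean response of at least 2-fold over both backgrounds numbered 1724. Their median ratio of the knockout response to the intact response was 0.943 on the log2 scale, and across these genes the 2 responses correlated with r = 0.972, a description in which genes are not independent replicates. The response was smaller in the knockout for 1026 of them (59.5%). Among the 649 falling genes 464 were smaller in the knockout, with a median ratio of 0.885, and among the 1075 rising genes 562 were smaller, with a median ratio of 0.986. The precision of single genes was limited, with a median SE of 0.136 for the interaction. The 95% interval of the interaction lay within 1 log2 unit of 0 for 13188 genes (86.5%) and for 1197 of the 1724 responders (69.4%). Within the tighter bound of 0.58 log2 units lay the intervals of 9924 genes (65.1%) and of 634 responders (36.8%).

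The 100 genes were sorted by their calls in the 2 backgrounds. A response was termed lost where it was called with galectin-3 intact and was smaller and not called in the knockout, damped where it was called in both with the same sign and was smaller in the knockout, and enhanced where it was called in both and larger in the knockout. It was termed gained where it was called in the knockout alone, and reversed where it was called in both with opposite signs. This gave 33 lost, 47 damped (Lgals3 among them), 7 enhanced, 7 gained and 6 reversed responses. Lost responses were mostly rises (26 of 33), with a median size of 0.70 in the intact background and 0.11 in the knockout. Damped responses were mostly falls (30 of 47), with medians of 1.99 and 1.16 and a median of 66.8% of the intact response kept (16.9% to 81.4%). In 32 of the 33 lost and 45 of the 47 damped responses, the knockout comparison was called with the transgene and not without it. Over all genes it was called for 4.89% with the transgene and for 0.354% without it. The interaction is also the difference of these 2 knockout comparisons, so the pattern follows in part from how the 100 genes were chosen. The sorting needs the test of the interaction: 1738 genes were called in the intact background and not in the knockout, and 33 of them passed it.

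**Figure D1:**
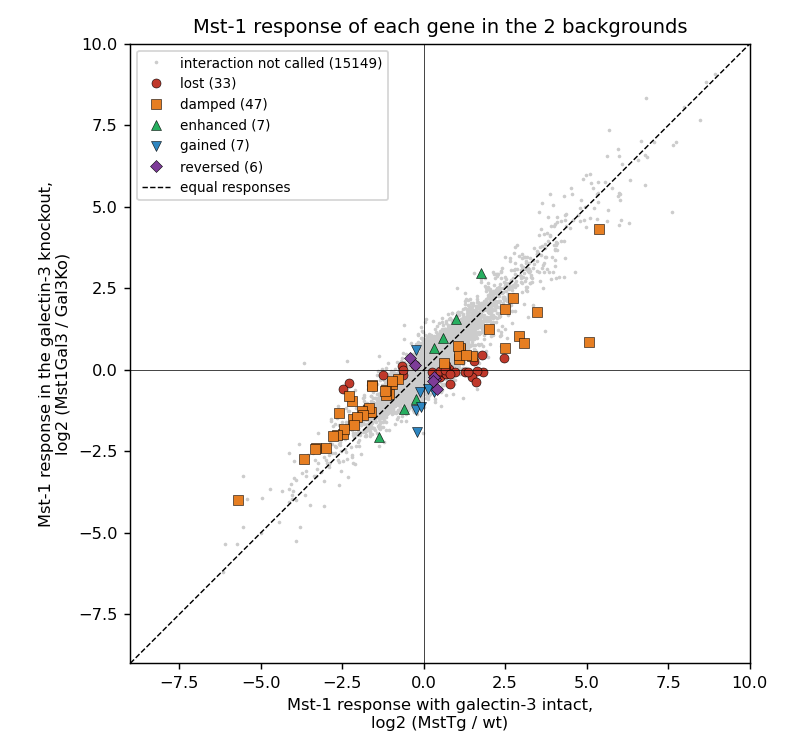
Mst-1 response of each of the 15249 genes with galectin-3 intact (horizontal axis, log2) and in the galectin-3 knockout (vertical axis, log2), with the 100 interaction genes marked by class and the dashed line at equal responses. The grey genes follow the line, and the 47 damped responses lie between the line and 0. The 33 lost responses were not called in the knockout and run from -0.60 (mt-Tt) to 0.46 (Ifit3) on the vertical axis.

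The calls depended on single libraries. Without any 1 library the count ran from 52 (without Mst1Gal3 replicate 4, and also without replicate 5) to 189 (without MstTg replicate 5), and 39 genes were called in all 26 such fits (14 lost, 20 damped, 3 enhanced, 1 gained and 1 reversed). Without the 6 libraries of high atrial genes, 106 genes were called, 38 below 0 and 68 above 0, and 62 of them were among the 100. At the edge of the threshold, Tmem143 (0.35), mt-Tq (1.11) and Plet1os (0.58) were the last genes called, with adjusted p of 0.0478, 0.0478 and 0.0488, and Hrc (0.34), Rapgef4 (0.41) and Sp100 (-0.63) were the first not called, at 0.0512, 0.0513 and 0.0516. Group ranges of MstTg and Mst1Gal3 did not overlap for 72 of the 100 genes (72%), against 504 of all 15249 genes (3.31%), and the 100 were chosen with these same libraries.

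Interferon-inducible genes rose in MstTg and lay within or near the wt range in Mst1Gal3. Of 24 measured genes on the interferon list, 23 rose in MstTg over wt, whereas 3 rose and 3 fell in Mst1Gal3 against Gal3Ko. Over all genes, 28.2% rose in MstTg over wt, and 26.9% rose and 25.6% fell in Mst1Gal3 against Gal3Ko. The list was chosen with earlier results of these data known, so its counts describe these libraries and are no independent support. The interaction was below 0 for 24 of 24 (7237 of 15249 over all genes) and was called for 15 (0.656% over all genes). Of these 15, 11 were lost, 2 damped and 2 reversed. The median interaction of the list was -0.98, against 0.01 over all genes tested, and the median Mst-1 response was 1.09 with galectin-3 intact and -0.04 in the knockout. With the transgene present, all 24 were lower in the knockout (Mst1Gal3 against MstTg), against 2.35% over all genes. The knockout without the transgene moved the list by a median of -0.13. The list count was 9 without the 6 libraries of high atrial genes and 8 without Mst1Gal3 replicate 5, and 8 list members were called in all 26 fits without 1 library.

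Summed over the 24 genes, the wt libraries held 181 to 244 CPM and the Gal3Ko libraries 175 to 224 CPM. The MstTg libraries held 293, 308, 332, 367, 418, 429 and 545 CPM, and the Mst1Gal3 libraries held 182, 187, 187, 198 and 203 CPM. Every MstTg library was thus above every library of the other 3 groups, and the MstTg libraries differed among themselves more than those of any other group. MstTg replicate 2 was the highest and MstTg replicate 5 the lowest of its group.

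**Figure D2:**
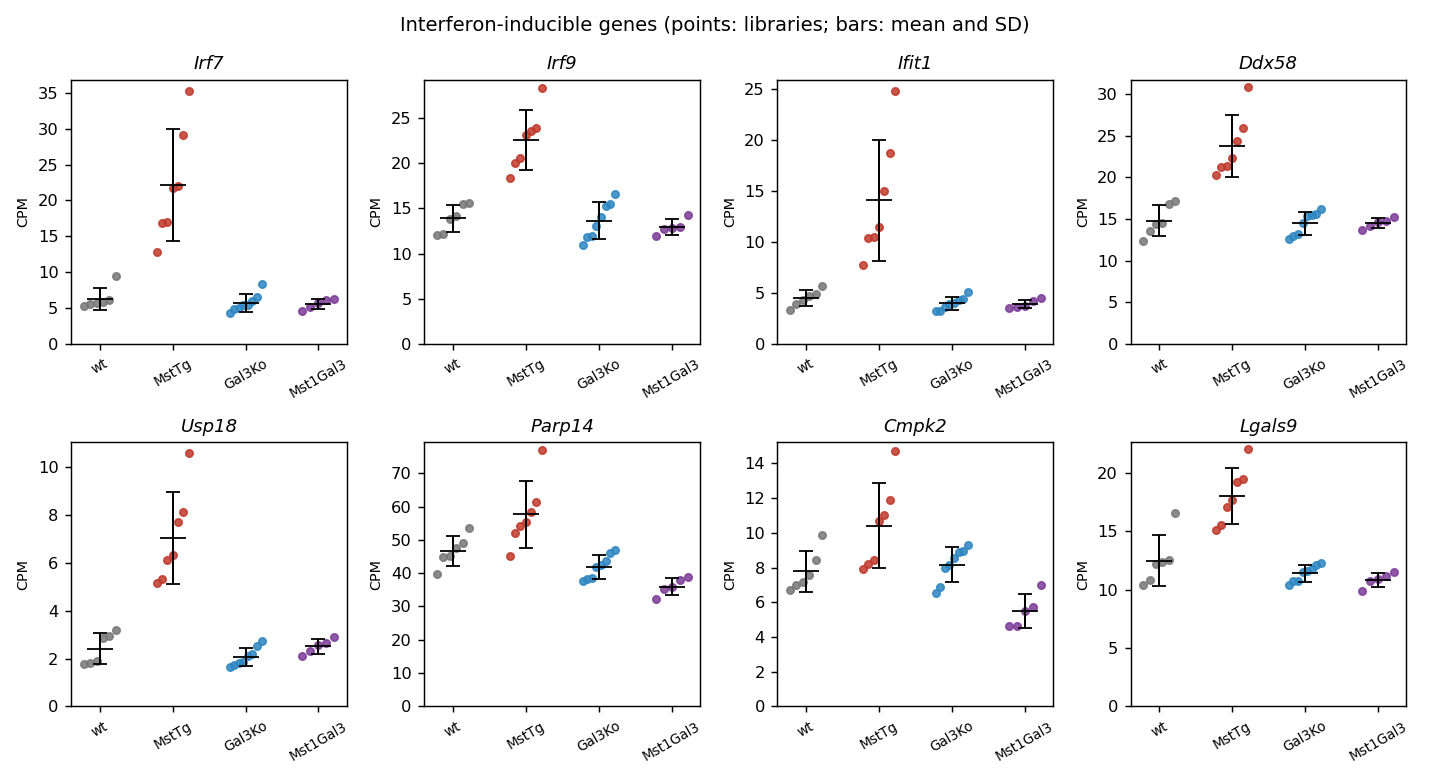
Levels (CPM, linear axis from 0) of 8 interferon-inducible genes in each library of the 4 groups, with group means and SD as bars. The MstTg libraries lie above those of Mst1Gal3 in each panel, and no Mst1Gal3 library exceeds the highest wt library, as for Irf7 (12.8 to 35.3 CPM in MstTg and 4.62 to 6.26 CPM in Mst1Gal3).

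Irf7, the transcription factor that drives type I interferon production, showed the clearest lost response. Its gene lies on chromosome 7 (141262706 to 141266481, minus strand). It ran from 5.30 to 9.39 CPM in wt (median 5.73), from 12.8 to 35.3 CPM in MstTg (median 21.8) and from 4.35 to 8.31 CPM in Gal3Ko (median 5.39). The Mst1Gal3 libraries were at 4.62, 5.11, 5.73, 6.10 and 6.26 CPM, all below every MstTg library and within the range of Gal3Ko. The Mst-1 response was 1.81 ± 0.19 intact and -0.05 ± 0.21 in the knockout, with a 95% interval from -0.48 to 0.38 for the latter. The interaction was -1.87 ± 0.29 (edgeR adjusted p = 0.00224) and was called in all 26 fits without 1 library. Irf7 overlaps Phrf1 on the opposite strand, and whether the counting used strand is not given in the sources used here, so reads of the 2 genes cannot be told apart where they overlap.

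Irf9, the DNA-binding partner of Stat2, ran from 12.1 to 15.6 CPM in wt, 18.4 to 28.4 CPM in MstTg and 11 to 16.6 CPM in Gal3Ko. Its 5 Mst1Gal3 values were 11.9, 12.7, 12.8, 12.9 and 14.3 CPM, with no overlap with MstTg. The interaction was -0.78 ± 0.14 (edgeR adjusted p = 0.00844), from a response of 0.70 to one of -0.08. Irf9 overlaps Rnf31 on the same strand.

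Ddx58 and Ifit1, from the same list, were lost as well. Ddx58, which encodes the RNA sensor RIG-I, ran from 12.4 to 17.2 CPM in wt, from 20.3 to 30.8 CPM in MstTg and from 12.6 to 16.2 CPM in Gal3Ko. In Mst1Gal3 it was at 13.7, 14.2, 14.6, 14.8 and 15.2 CPM. Its response was 0.68 ± 0.09 with galectin-3 intact and 0.00 ± 0.09 without (interaction -0.68 ± 0.13, edgeR adjusted p = 0.00844). Ifit1, an inhibitor of the translation of foreign RNA, ran from 3.29 to 5.66 CPM in wt, 7.69 to 24.8 CPM in MstTg and 3.21 to 5.06 CPM in Gal3Ko. Its Mst1Gal3 libraries held 3.52, 3.58, 3.69, 4.20 and 4.46 CPM. Both genes were separated without overlap between the 2 Mst-1 groups, and the interaction of Ifit1 was -1.67 ± 0.30 (edgeR adjusted p = 0.00844; 0.0691 in limma-voom with quality weights).

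Usp18, a protease that removes Isg15 from proteins and damps interferon signalling, rose 2.90-fold in MstTg, from 1.78 to 3.20 CPM in wt to 5.16 to 10.6 CPM. Gal3Ko libraries held 1.67 to 2.74 CPM and the Mst1Gal3 libraries 2.12, 2.31, 2.57, 2.66 and 2.92 CPM. The Mst1Gal3 libraries overlapped Gal3Ko and lay below all MstTg libraries (interaction -1.27 ± 0.25, edgeR adjusted p = 0.0115). Cmpk2, a mitochondrial nucleotide kinase induced by interferon, ran from 6.68 to 9.85 CPM in wt, 7.94 to 14.7 CPM in MstTg, 6.55 to 9.31 CPM in Gal3Ko, and 4.64, 4.66, 5.52, 5.75 and 7 CPM in Mst1Gal3. It was reversed, with a response of 0.41 intact and -0.57 in the knockout (interaction -0.98 ± 0.19, adjusted p = 0.0104). Parp14, an ADP-ribosyltransferase, was reversed as well (0.30 and -0.22, edgeR adjusted p = 0.0388), and its call was held in 15 of 26 fits without 1 library.

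Outside the list, further genes known to respond to interferon were called. Lgals9, which encodes galectin-9, ran from 10.4 to 16.6 CPM in wt, 15.1 to 22 CPM in MstTg and 10.4 to 12.3 CPM in Gal3Ko, and was at 9.91, 10.7, 10.9, 11.2 and 11.5 CPM in Mst1Gal3. Of 5 measured genes that encode other galectins or the protein that binds galectin-3, it alone was called, and its rise was lost (interaction -0.60 ± 0.13, edgeR adjusted p = 0.0202; 0.0511 without Mst1Gal3 replicate 4). Gbp9 and Iigp1, GTPases induced by interferon-gamma, did not respond with galectin-3 intact (0.14 and -0.08) and fell in the knockout (-0.59 and -1.13). Their edgeR adjusted p for the interaction were 0.0316 and 0.0429, called in 17 and 12 of 26 fits without 1 library. Gbp9 overlaps Gbp4 on the same strand and belongs to a family of near-identical copies, so the assignment of its reads is uncertain. On the list of antigen presentation genes, none of 17 was called for the interaction (0.656% over all genes). Of these 17, 9 were lower and none higher in Mst1Gal3 than in MstTg, against 2.35% lower and 2.54% higher over all genes.

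Because these genes share a known promoter element, their promoter windows (250 bases before to 50 after the start, RefSeq, GRCm38.p6) were searched on both strands for TTTC, any 2 bases and TTTC again, the core of the interferon-stimulated response element. Among 10500 genes with a window, 399 (3.80%) held it. It was found in 9 of 15 interferon list genes with a window (60%), in 9 of 18 lost rises (50%), in 4 of the 10 lost rises outside the list (40.0%), in 1 of 32 damped genes (3.12%) and in 0 of 5 lost falls. The lost rises outside the list include genes known to respond to interferon, such as Lgals9, so their share does not extend the element beyond such genes. A match describes letters in the window and does not show binding. Stretches of 5 lost rises are shown to let the spacing of the element be compared, in the direction of the gene with the element in capitals; Ifit3, Stat2 and Trim30a were chosen for them after their values had been seen.
Ifit1: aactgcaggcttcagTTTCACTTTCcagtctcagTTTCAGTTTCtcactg
Ifit3: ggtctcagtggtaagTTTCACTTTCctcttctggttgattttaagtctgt
Stat2: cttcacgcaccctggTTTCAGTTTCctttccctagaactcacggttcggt
Lgals9: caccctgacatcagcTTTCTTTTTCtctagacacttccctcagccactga
Trim30a: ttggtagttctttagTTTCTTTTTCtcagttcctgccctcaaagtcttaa
Ifit1 (chr19:34640770-34640819, plus strand) holds 2 copies, the first beginning 104 bases before the start. The element begins 156 bases before the start in Ifit3 (chr19:34583358-34583407, plus strand), 222 in Stat2 (chr10:128270261-128270310, plus strand), 55 in Lgals9 (chr11:78984945-78984994, minus strand) and 36 in Trim30a (chr7:104465195-104465244, minus strand). No GENCODE transcript of the gene was found to begin near the start used for Ifit1 or Stat2, so these distances are less certain. Over all windows, 65.3% had such a transcript. The interaction was -1.33 for Ifit3 (adjusted p = 0.0253), -0.67 for Stat2 (adjusted p = 0.0326) and -0.72 for Trim30a (adjusted p = 0.0427) in the edgeR test. The response of Ifit3 in the knockout was 0.46, with a 95% interval from 0.02 to 0.89, so it is not shown to be absent.

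Among lost rises outside the interferon genes, Mcm2, a subunit of the helicase that licenses DNA replication, had the smallest p. It ran from 5.49 to 8.15 CPM in wt, 9.23 to 12.6 CPM in MstTg and 5.43 to 7.24 CPM in Gal3Ko, and was at 5.6, 5.71, 6.53, 6.65 and 7 CPM in Mst1Gal3. No Mst1Gal3 library reached the MstTg range (interaction -0.75 ± 0.14, edgeR adjusted p = 0.00844), and the call was held in all 26 fits without 1 library. Of 25 cell cycle genes, 20 rose and 1 fell with galectin-3 intact, and 7 rose and 3 fell in the knockout. Over all genes, 28.2% rose and 26.8% fell with galectin-3 intact and 26.9% rose and 25.6% fell in the knockout, so the rises in the knockout were near the share of all genes. The interaction was below 0 for 23 of the 25 (7237 of 15249 over all genes) with a median of -0.38. It was called for 2 of them, Mcm2 and Ccnd2 (0.656% over all genes). Ccnd2, which encodes cyclin D2 of the G1 phase, was damped. It ran from 154 to 168 CPM in wt, 306 to 384 CPM in MstTg and 137 to 178 CPM in Gal3Ko, and stood at 214, 231, 248, 252 and 280 CPM in Mst1Gal3, between the 2 groups without overlap. The interaction was -0.47 ± 0.09 (edgeR adjusted p = 0.0126; 0.0557 without the atrial-high libraries), and Ccnd2 overlaps an uncharacterised gene on the opposite strand.

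Myh7, the beta-myosin heavy chain that marks fetal gene expression in the mouse heart, differed in its baseline. It ran from 85.1 to 610 CPM in wt (median 265) and from 657 to 944 CPM in Gal3Ko (median 847), and Gal3Ko lay above wt in every library (1.44, edgeR adjusted p = 0.0191). It ran from 994 to 2870 CPM in MstTg (median 1570) and was at 812, 1050, 1060, 1100 and 1210 CPM in Mst1Gal3, which overlapped both MstTg and Gal3Ko. The response was 2.45 ± 0.31 intact and 0.35 ± 0.29 in the knockout, and the interaction was -2.10 ± 0.42 (adjusted p = 0.0193, and 0.0785 with a replicate block). Of this interaction, the larger share came from the higher level in Gal3Ko, since Mst1Gal3 against MstTg was -0.66 (edgeR adjusted p = 0.248). Myh7 overlaps Mhrt and 2 other genes on the opposite strand. It was the 1 called of 15 measured hypertrophy genes (0.656% over all genes). Of these, 15 rose with galectin-3 intact and 14 in the knockout, against 28.2% and 26.9% over all genes. Most of this list went the other way from Myh7, with a median interaction of 0.18 and an interaction below 0 for 3 of the 15, Myh7 included.

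Lost falls were few. Bmper, a modulator of bone morphogenetic protein signalling, ran from 3.28 to 5.30 CPM in wt, 1.27 to 2.55 CPM in MstTg, 3.67 to 4.85 CPM in Gal3Ko, and was at 2.80, 3.33, 4.09, 4.32 and 4.86 CPM in Mst1Gal3. Every Mst1Gal3 library lay above the MstTg range (interaction 1.11 ± 0.21, edgeR adjusted p = 0.0104). Cxcl12, a chemokine of stromal and endothelial cells, ran from 167 to 213 CPM in wt, 101 to 143 CPM in MstTg and 126 to 203 CPM in Gal3Ko, and was at 145, 159, 163, 171 and 171 CPM in Mst1Gal3. Its fall of 0.63 became -0.02 in the knockout (interaction 0.61 ± 0.13, edgeR adjusted p = 0.0164; 0.0779 at the highest among other settings). Mmp9, a matrix metalloproteinase carried by neutrophils and macrophages, was low throughout, at 0.825 to 2.46 CPM in wt, 0.122 to 0.415 CPM in MstTg, 0.619 to 1.60 CPM in Gal3Ko and 0.618, 0.681, 0.683, 0.872 and 0.885 CPM in Mst1Gal3. Its interaction was 1.90 ± 0.41 (edgeR adjusted p = 0.0218; 0.0559 at the highest without Mst1Gal3 replicate 1 or 4). The call was also not made without the atrial-high libraries or with a replicate block, where the adjusted p reached 0.122. The summed neutrophil markers, Mmp9 included, averaged 4.11 CPM in wt, 1.91 in MstTg, 3.22 in Gal3Ko and 2.77 in Mst1Gal3, and their part in the result was not tested.

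The other lost falls that the text's rule names were Pafah2, an acetylhydrolase of oxidised phospholipids, mt-Tt, the mitochondrial threonine tRNA, and Nudt13, a Nudix hydrolase. Pafah2 changed by -0.64 with galectin-3 intact and -0.15 in the knockout (edgeR adjusted p = 0.0299), and was called in 17 of 26 fits without 1 library. The 95% interval of the knockout response ran from -1.16 to -0.03 for mt-Tt and from 0.00 to 0.29 for Nudt13, so a response of mt-Tt in the knockout is not shown to be absent. Nudt13 was called in 10 of the 26 fits.

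Damped rises numbered 17. Arhgap22, a GTPase-activating protein for Rac, had the second smallest p after Lgals3. It ran from 1.85 to 3.10 CPM in wt, 15.5 to 22.3 CPM in MstTg (median 19.7) and 1.28 to 2.15 CPM in Gal3Ko, and was at 2.80, 2.88, 2.97, 3.33 and 3.85 CPM in Mst1Gal3. The rise was 8.39-fold with galectin-3 intact and 1.77-fold in the knockout, and MstTg lay far above all other groups (interaction -2.24 ± 0.19, edgeR adjusted p = 2.69e-09). The gene lies on chromosome 14 (33214026 to 33369934), 14.1 Mb from Lgals3. Wisp1, a matricellular protein of the CCN family and a target of Wnt signalling, ran from 0.690 to 1.29 CPM in wt, 9.17 to 12.4 CPM in MstTg and 1.06 to 2.32 CPM in Gal3Ko. Its Mst1Gal3 values of 4.24, 4.43, 4.83, 5.58 and 7.87 CPM lay between these groups without overlap. The response went from 3.48 ± 0.17 to 1.79 ± 0.16 (interaction -1.69 ± 0.24, edgeR adjusted p = 0.000261).

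Angptl7, a secreted angiopoietin-like protein, ran from 0.878 to 2.32 CPM in wt, 6.30 to 16.4 CPM in MstTg and 1.70 to 5.16 CPM in Gal3Ko, and was at 5.11, 5.83, 6.34, 6.36 and 6.55 CPM in Mst1Gal3. Mst1Gal3 overlapped both MstTg and Gal3Ko (interaction -1.87 ± 0.33, edgeR adjusted p = 0.00844; 0.0926 in limma-voom with quality weights), and the gene lies within Mtor on the opposite strand. Ddhd1, a phospholipase of phosphatidic acid, ran from 13.9 to 20.5 CPM in wt, 31.2 to 37.6 CPM in MstTg and 9.28 to 14.7 CPM in Gal3Ko, and was at 16.3, 16.7, 16.7, 17.6 and 19.3 CPM in Mst1Gal3. It was lower in the knockout both without the transgene (-0.46, adjusted p = 0.00247) and with it (-1.06, adjusted p = 4.38e-10), with an interaction of -0.60 ± 0.12 (edgeR adjusted p = 0.0121). Ddhd1 is the called gene nearest to Lgals3, at 1.75 Mb.

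Tgfbr1, the type I receptor of transforming growth factor beta, was the 1 called of 29 measured genes of that pathway (0.656% over all genes). It ran from 20.1 to 23.6 CPM in wt, 45.1 to 57.5 CPM in MstTg and 21.5 to 27.9 CPM in Gal3Ko, and was at 34.9, 37.5, 40.1, 40.9 and 44.9 CPM in Mst1Gal3. The Mst1Gal3 libraries lay just below all MstTg libraries (interaction -0.44 ± 0.09, edgeR adjusted p = 0.0191; 0.119 at the highest among other settings). Loxl2, an enzyme that cross-links collagen, was the 1 called of 38 measured fibrosis and matrix genes (0.656% over all genes). It ran from 8.32 to 15.5 CPM in wt, 35.6 to 50.2 CPM in MstTg and 9.20 to 14.1 CPM in Gal3Ko, and was at 19.3, 21.0, 27, 27.9 and 29.0 CPM in Mst1Gal3. Its interaction of -0.73 ± 0.18 (edgeR adjusted p = 0.0457) was called in 9 of 26 fits without 1 library.

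The fibrosis and matrix list as a whole rose in both backgrounds, 37 of 38 genes with galectin-3 intact and 38 of 38 in the knockout (28.2% and 26.9% over all genes). Its median response was 1.72 and 1.44, and the median interaction was -0.13. The interaction was below 0 for 31 of the 38 (7237 of 15249 over all genes). With the transgene present, 10 of the 38 were lower and none higher in the knockout (Mst1Gal3 against MstTg), against 2.35% lower and 2.54% higher over all genes. Postn, which encodes periostin of activated fibroblasts, ran from 30.7 to 66.3 CPM in wt, 361 to 476 CPM in MstTg and 32.3 to 47.2 CPM in Gal3Ko, and was at 154, 256, 264, 265 and 318 CPM in Mst1Gal3. All 5 lay below MstTg, and Postn was lower in Mst1Gal3 than in MstTg (-0.76, edgeR adjusted p = 0.00593), yet its interaction of -0.63 (95% interval -1.09 to -0.16) did not pass the adjusted threshold (adjusted p = 0.232). For Col1a1, the main fibrillar collagen gene, the response was 2.16 and 2.08, with an interval of -0.58 to 0.41 for the interaction. For Timp1, an inhibitor of metalloproteinases, it was 2.85 and 2.72 (-0.66 to 0.40), and for Ctgf, a matricellular target of YAP, 3.04 and 2.86 (-0.66 to 0.30). For Tgfb2, a ligand of the pathway, both responses were 1.94 (interval of the interaction -0.22 to 0.21). Col3a1 was likewise not called (1.28 and 1.15, edgeR adjusted p = 0.795).

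**Figure D3:**
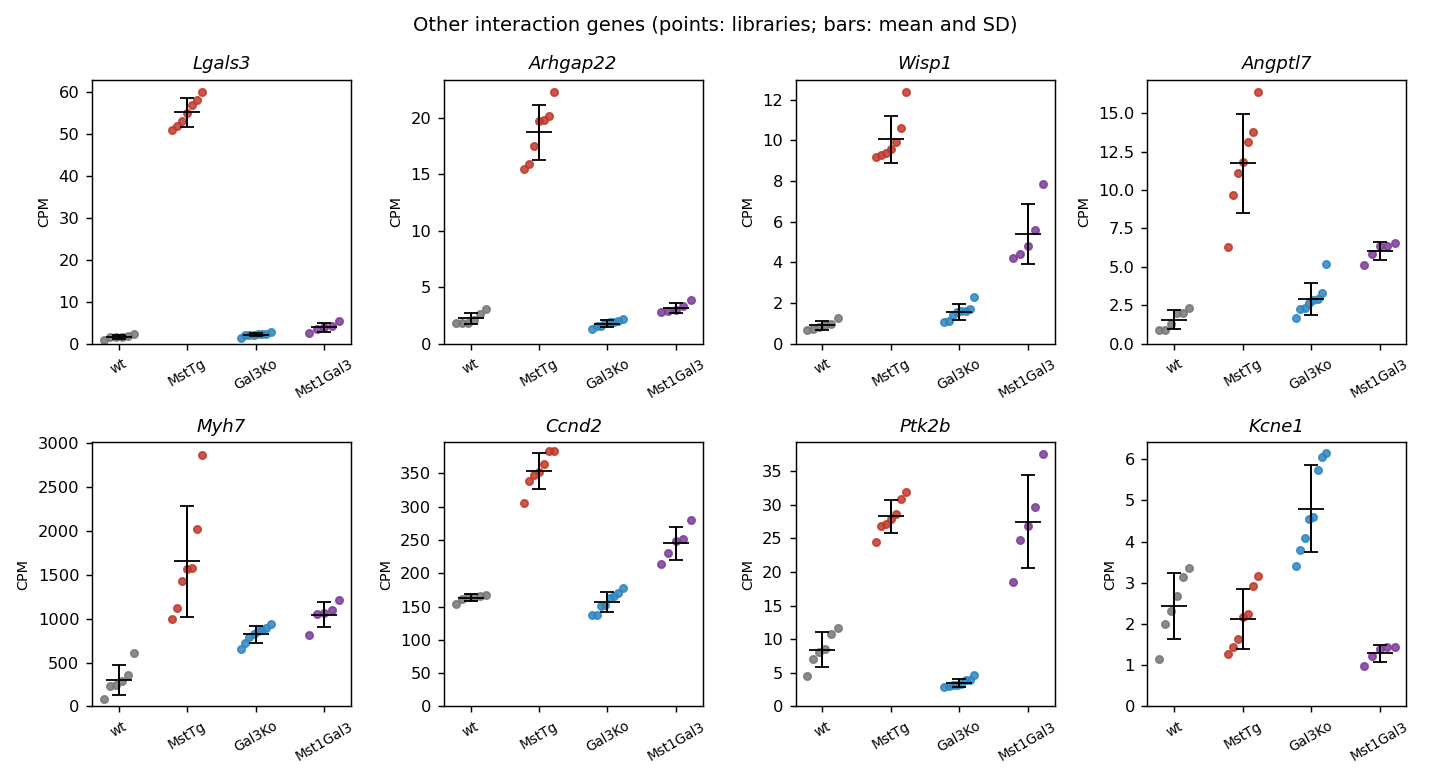
Levels (CPM, linear axis from 0) of Lgals3, 3 genes with a damped rise besides it (Arhgap22, Wisp1, Angptl7), Myh7, Ccnd2, the enhanced gene Ptk2b and the gained gene Kcne1 in each library, with group means and SD as bars. Arhgap22 falls from 15.5 to 22.3 CPM in MstTg to 2.80 to 3.85 CPM in Mst1Gal3, and Ptk2b is lowest in Gal3Ko (2.96 to 4.62 CPM).

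Damped falls formed the largest single class and direction of interaction genes, with 30 genes. Scara5, a ferritin receptor of stromal cells, had the smallest p among them. It ran from 19.5 to 32.8 CPM in wt, 3.21 to 6.39 CPM in MstTg (median 5.10) and 18.9 to 27.3 CPM in Gal3Ko, and was at 10.3, 11.4, 12.3, 12.4 and 12.8 CPM in Mst1Gal3. These 5 libraries lay above all MstTg and below all Gal3Ko libraries, and 42.8% of the fall was kept (-2.19 ± 0.12 and -0.94 ± 0.12, interaction 1.25 ± 0.16, edgeR adjusted p = 0.000104). Scara5 lies on chromosome 14 (65666403 to 65764826). Cxcl14, a chemokine of fibroblasts and epithelia, ran from 11.7 to 22.1 CPM in wt, 1.63 to 3.34 CPM in MstTg and 9.98 to 20 CPM in Gal3Ko, and was at 4.57, 5.18, 5.45, 6.40 and 6.50 CPM in Mst1Gal3. It also stood between the groups without overlap (interaction 1.28 ± 0.23, edgeR adjusted p = 0.00844).

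Rpl3l, the ribosomal protein made in striated muscle in place of Rpl3, ran from 137 to 165 CPM in wt, 23.1 to 32.6 CPM in MstTg and 142 to 190 CPM in Gal3Ko. Its Mst1Gal3 values of 40.3, 41.6, 46.1, 47.4 and 53.5 CPM all exceeded MstTg, and 75.0% of the fall was kept (interaction 0.61 ± 0.11, edgeR adjusted p = 0.00844). Gstk1, a glutathione transferase of mitochondria and peroxisomes, ran from 28.7 to 35.3 CPM in wt, 7.22 to 10.5 CPM in MstTg and 30.9 to 37.6 CPM in Gal3Ko, and was at 11.4, 13.1, 15.1, 15.4 and 16.6 CPM in Mst1Gal3. The 2 Mst-1 groups again did not overlap (interaction 0.63 ± 0.12, edgeR adjusted p = 0.00844). Ldhd, the mitochondrial D-lactate dehydrogenase, ran from 42.5 to 47.2 CPM in wt, 17.8 to 22.8 CPM in MstTg and 35.6 to 44.2 CPM in Gal3Ko. In Mst1Gal3 it was at 21.9, 24.4, 25.2, 26.3 and 33.0 CPM, overlapping MstTg at the lowest value (interaction 0.56 ± 0.10, edgeR adjusted p = 0.00844), and it overlaps Znrf1 on the opposite strand.

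Acaa2, the thiolase that ends the fatty acid oxidation spiral in mitochondria, ran from 577 to 680 CPM in wt, 112 to 160 CPM in MstTg and 580 to 659 CPM in Gal3Ko, and was at 169, 183, 190, 203 and 206 CPM in Mst1Gal3. All Mst1Gal3 libraries lay above MstTg and far below Gal3Ko, with 78.6% of the fall kept (interaction 0.46 ± 0.09, edgeR adjusted p = 0.0159). It was the 1 called of 31 measured genes of fatty acid oxidation and uptake, and was not called with a replicate block (edgeR adjusted p = 0.0578). On that list 29 genes fell in each background, 14 were higher and none lower in Mst1Gal3 than in MstTg (2.54% and 2.35% over all genes), and the median interaction was 0.21. The nuclear-encoded respiratory chain gave no interaction call among 36 genes. All 36 fell in both backgrounds, by a median of -1.05 and -0.88, the interaction was above 0 for every one of them, and 13 were higher in Mst1Gal3 than in MstTg. On the citric acid cycle list 18 of 18 genes fell in both backgrounds with a median interaction of 0.12 and no call. Over all genes tested the median interaction was 0.01 and 0.656% were called. Of all genes, 26.8% fell with galectin-3 intact and 25.6% in the knockout.

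Among ion channel genes, 3 of 25 measured on the calcium handling and ion channel list were called (0.656% over all genes). The list as a whole showed little shift, with a median interaction of 0.03, below 0 for 12 of the 25. Its median responses were -0.46 with galectin-3 intact and -0.57 in the knockout. On it 4 genes were higher and none lower in Mst1Gal3 than in MstTg, against 2.54% and 2.35% over all genes. Of the 3 called, Kcne1 is described below. Kcnj3, a subunit of the acetylcholine-activated potassium channel, ran from 69.6 to 92.3 CPM in wt, 8.82 to 11.9 CPM in MstTg and 76.8 to 92.2 CPM in Gal3Ko, and was at 12.6, 15.4, 16.3, 18.1 and 20 CPM in Mst1Gal3. Its interaction was 0.60 ± 0.13 (edgeR adjusted p = 0.0191; 0.0512 without Mst1Gal3 replicate 5 and 0.0549 without the atrial-high libraries). Scn4b, a sodium channel beta subunit, had one of the deepest falls, from 50.6 to 100 CPM in wt to 1.06 to 1.71 CPM in MstTg, with 34.9 to 74.9 CPM in Gal3Ko and 2.57, 2.93, 3.63, 3.67 and 4.32 CPM in Mst1Gal3. The interaction was 1.68 ± 0.36 (edgeR adjusted p = 0.0253) and was called in 22 of 26 fits without 1 library. Scn4b was not called in limma-voom, with or without quality weights, or with a replicate block (adjusted p up to 0.136). Scn4a, a sodium channel alpha subunit of striated muscle outside that list, ran from 41.7 to 63.4 CPM in wt, 2.85 to 6 CPM in MstTg and 38.7 to 52.4 CPM in Gal3Ko, and was at 6.63, 6.66, 6.78, 6.91 and 8.82 CPM in Mst1Gal3 (interaction 0.94 ± 0.18, edgeR adjusted p = 0.0125). Scn4a was not called with a replicate block (edgeR adjusted p = 0.068). For Kcnj3, Scn4b and Scn4a every Mst1Gal3 library lay above every MstTg library and below every Gal3Ko library.

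**Figure D4:**
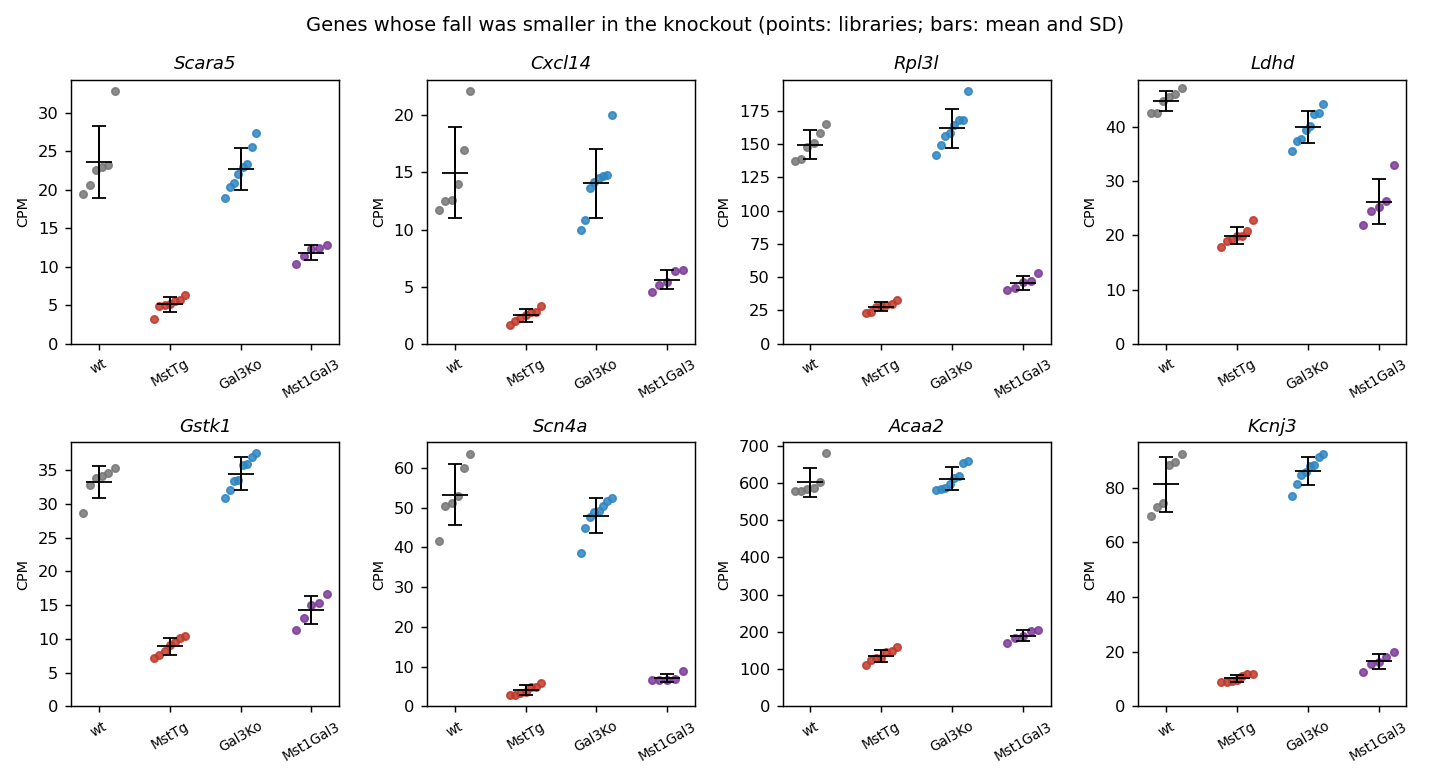
Levels (CPM, linear axis from 0) of 8 genes whose fall was damped in the knockout, in each library of the 4 groups, with group means and SD as bars. In 7 of the panels the Mst1Gal3 libraries lie above all MstTg libraries, and in Ldhd the ranges overlap.

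Enhanced responses were led by Ptk2b, the calcium-regulated kinase Pyk2. It ran from 4.57 to 11.7 CPM in wt, 24.5 to 31.9 CPM in MstTg and 2.96 to 4.62 CPM in Gal3Ko, and was at 18.5, 24.8, 26.8, 29.7 and 37.5 CPM in Mst1Gal3. The 2 Mst-1 groups overlapped, and in the groups without the transgene Gal3Ko was lower than wt, with ranges that met at 1 end (-1.27, edgeR adjusted p = 8.58e-05). The response was 1.75 ± 0.16 intact and 2.97 ± 0.16 in the knockout (interaction 1.22 ± 0.23, adjusted p = 0.0104, and 0.0792 with a replicate block). Cep128, a centriolar protein, fell by 0.59 with galectin-3 intact and by 1.19 in the knockout (edgeR adjusted p = 0.0157). Abhd18, an alpha/beta hydrolase-fold protein, fell by 1.36 and by 2.06 (edgeR adjusted p = 0.0353; called in 15 of 26 fits without 1 library), and was higher in Gal3Ko than in wt (0.45, adjusted p = 0.0462). Adamts3, a procollagen protease, fell by 0.23 and by 0.90 (edgeR adjusted p = 0.0191, and 0.0792 with a replicate block). Abhd4 (0.33 and 0.68), Esd (0.61 and 0.97) and the antisense transcript Plet1os (0.99 and 1.57) rose more in the knockout, and were called in 19, 9 and 7 of 26 fits without 1 library.

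Kcne1, the beta subunit of the slow delayed rectifier potassium channel, had a gained fall. It ran from 1.16 to 3.35 CPM in wt, 1.27 to 3.17 CPM in MstTg and 3.42 to 6.15 CPM in Gal3Ko, and was at 0.971, 1.22, 1.39, 1.44 and 1.44 CPM in Mst1Gal3. Gal3Ko lay above all other groups (0.97 over wt, edgeR adjusted p = 0.0158), and Mst1Gal3 against MstTg did not pass (-0.73, adjusted p = 0.0792). The response was -0.20 ± 0.21 intact and -1.90 ± 0.23 in the knockout (interaction -1.69 ± 0.31, adjusted p = 0.00844). Rasd2, a small GTPase of the Ras family, had responses of -0.23 and -1.24 (edgeR adjusted p = 0.0218), and Pknox2, a homeobox factor, of -0.12 and -0.66 (edgeR adjusted p = 0.0218). Rasd2 was called in 24 and Pknox2 in 23 of 26 fits without 1 library, and Rasd2 was not called in limma-voom, with a replicate block or without the atrial-high libraries (adjusted p up to 0.0884). Wnt11, a ligand of non-canonical Wnt signalling, had responses of 0.31 and -0.67 (edgeR adjusted p = 0.0282; called in 21 of 26 fits without 1 library). Ntng2, a netrin-like membrane protein, went the other way, with -0.23 intact and a rise of 0.61 in the knockout (edgeR adjusted p = 0.0226; called in 24 of the 26 fits). Other reversed responses were small, at 0.28 and -0.32 for the lysosomal peptidase Prcp, -0.27 and 0.17 for the protocadherin Pcdh19, and -0.43 and 0.35 for the synaptic scaffold Shank1, which were called in 13, 23 and 7 of 26 fits without 1 library.

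Besides Myh7, no fixed marker of heart failure or of macrophages had an interaction call. Nppa, the atrial natriuretic peptide gene, ran from 44.5 to 108 CPM in wt, 1990 to 2660 CPM in MstTg and 47.1 to 129 CPM in Gal3Ko, and was at 1070, 1220, 1510, 1600 and 2100 CPM in Mst1Gal3. The Mst-1 groups overlapped in 1 Mst1Gal3 library (interaction -0.57, 95% interval -1.23 to 0.08, edgeR adjusted p = 0.481). Nppb, which encodes the B-type peptide, had responses of 1.63 and 1.89 (interval of the interaction -0.19 to 0.71). Acta1, the skeletal actin of the fetal programme, rose 14.8-fold and 41.8-fold, and its interaction of 1.5 ± 0.45 did not pass (edgeR adjusted p = 0.147), with Gal3Ko at 40.9 to 172 CPM and wt at 81.7 to 342 CPM. Atp2a2, the calcium pump of the sarcoplasmic reticulum, fell by 0.92 and by 0.69 (edgeR adjusted p = 0.316). Myh6, the adult myosin heavy chain gene, had responses of -0.20 and -0.11 (edgeR adjusted p = 0.788). Among macrophage genes, Cd68 rose by 1.11 and 1.47 and Gpnmb by 2.15 and 2.35, with edgeR adjusted p of 0.494 and 0.814, and none of 25 macrophage markers was called. On that list 8 genes rose and 3 fell with galectin-3 intact, 7 rose and 3 fell in the knockout, and the median responses were 0.00 and 0.16. Over all genes, 28.2% rose and 26.8% fell with galectin-3 intact and 26.9% rose and 25.6% fell in the knockout. The interaction was below 0 for 5 of the 25 macrophage markers (7237 of 15249 over all genes). The chemokine gene Ccl2 was low, with responses of -0.94 and -0.34, and not called (edgeR adjusted p = 0.482). None of 22 Hippo pathway genes and none of 23 YAP and TEAD targets was called, and the median responses of the latter were 0.74 and 0.58. Over all genes 0.656% were called, so the absence of calls in lists of this size, the macrophage list included, is near that share.

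**Figure D5:**
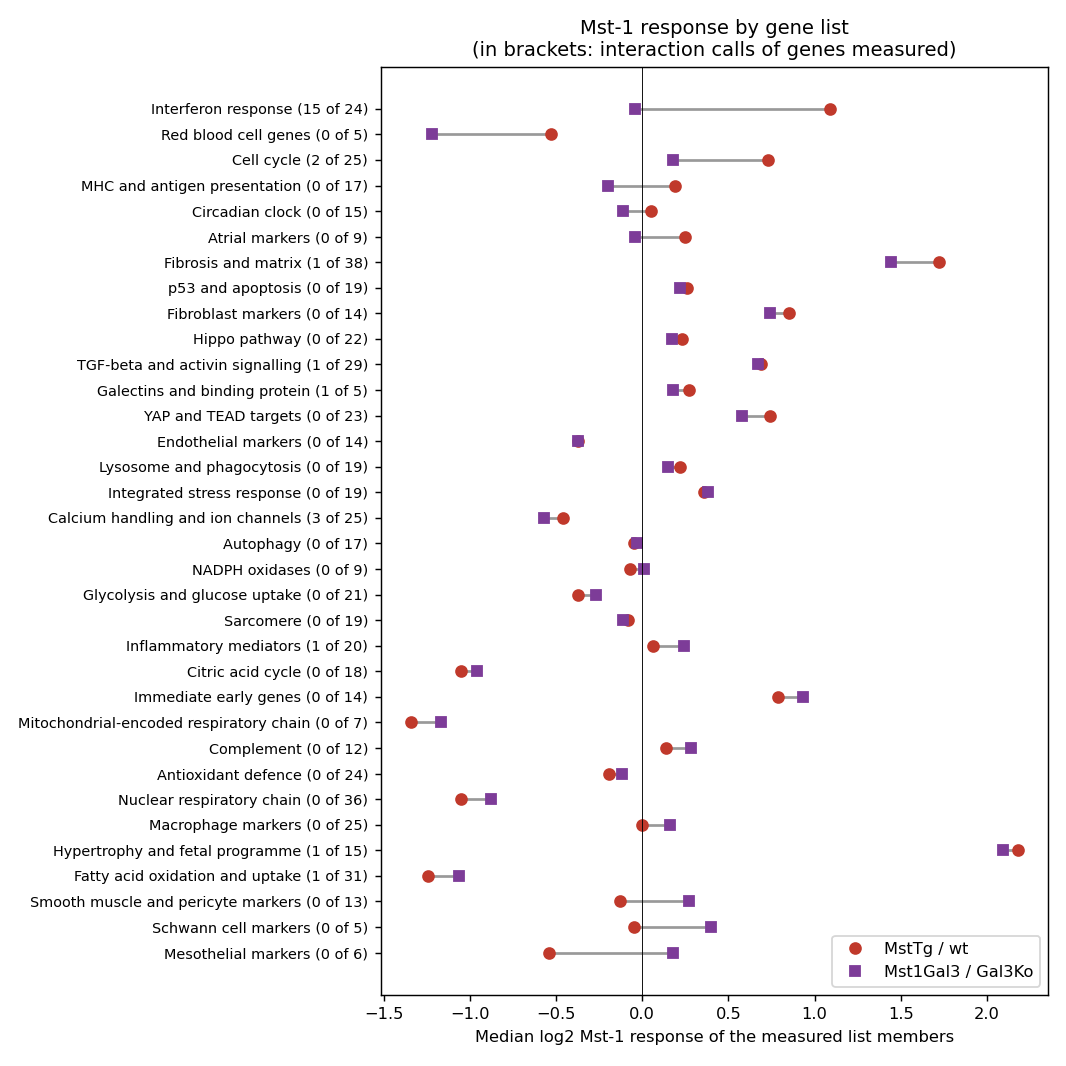
Median log2 Mst-1 response of the measured members of each gene list with at least 5 of them, with galectin-3 intact (circles) and in the knockout (squares), ordered by the median interaction and with the interaction calls of genes measured in brackets. The interferon list moves from 1.09 to -0.04 with 15 of 24 genes called, and no other list has more than 3 calls.

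Of the 100 genes, 13 lie on chromosome 14, the chromosome of Lgals3, which holds 484 of the genes tested (3.19%). They are Lgals3 itself, 5 other damped genes (Ddhd1, Arhgap22, Scara5, Ephx2 and Loxl2), 4 lost (Myh7, Irf9, Phf11d and Nudt13) and 3 enhanced (Abhd4, Ptk2b and Esd). Within 20 Mb of Lgals3, 9 of 274 other genes were called (3.28%), against 0.656% of all genes. The distances were 1.75 Mb for Ddhd1, 6.89 Mb for Abhd4, 7.61 Mb for Myh7, 8.23 Mb for Irf9 and 12.0 Mb for Phf11d. They were 14.1 Mb for Arhgap22, 18.3 Mb for Scara5, 18.7 Mb for Ephx2 and 18.8 Mb for Ptk2b. Of those within 20 Mb that are described above, Ddhd1, Myh7 and Ptk2b also differed between Gal3Ko and wt, as did 0.354% of all genes. The interaction includes that comparison, so these genes were chosen in part by it. Irf9, Arhgap22, Scara5 and Abhd4 did not pass in it (edgeR adjusted p of 0.991, 0.681, 0.979 and 0.119). For Abhd4 every Gal3Ko library nevertheless lay below every wt library (-0.21). The part of the position of these genes in these results was not tested. Ephx2 and Phf11d are named for their position after their values had been seen.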

How the data were processed

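The authors deposited a table of raw read counts per gene for 26 libraries of ribosomal RNA-depleted total RNA from left ventricle, made with a directional kit per the labels' protocols. Per the submitters' processing notes, bcl2fastq 2.19.1.403, STAR and featureCounts were used with GRCm38. Other versions, the annotation, the strand setting, the treatment of multimapping reads and any gene filter were not given in the sources used here. Gene positions came from GENCODE M21 (GRCm38), which held 15195 of the 15249 identifiers. The lowest mean count was 10, and edgeR's filterByExpr removed 0 genes.

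Counts were fitted with edgeR 4.0.16 in R 4.3.3, with a mean for each of 4 groups over all 26 libraries, TMM normalization and a robust quasi-likelihood test (22 residual degrees of freedom). The interaction and each simple contrast were adjusted over all genes by Benjamini-Hochberg at 0.05, and an SE is the absolute log2 fold change over the root of F. The fit was tested on simulated data. Named genes were Stk4, Lgals3, 15 readouts, the 6 interaction calls of smallest p per class and direction of the intact response (mean of at least 1 CPM in a group), and up to 4 called members of each of 37 lists; 1 gene that met this rule is not reported here. Members and lists were chosen with earlier results of these data known. Library measures were compared with 100000 permutations (two-sided) of the galectin-3 label within each Mst-1 genotype. Replicate pairs of a group differed by a chi-square of at least 4.9 per degree of freedom, so none was the same library sequenced again. This does not show that the libraries came from separate animals. Alternatives were other normalizations, DESeq2 1.42.0, limma 3.58.1 (voom), other filters and thresholds, a replicate block, and fits without libraries.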

Additional observations from a re-analysis of the deposited data

Results flagged for a closer look

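The Mst-1 response differed between the 2 galectin-3 backgrounds, by edgeR's test of the interaction, for 50 of the genes that the text names by its rule. Interactions are in log2 units, and negative values mean a lower response in the knockout. Lost responses with an interaction below 0 were Irf7 (-1.87), Irf9 (-0.78), Mcm2 (-0.75), Ifit1 (-1.67), Ddx58 (-0.68), Usp18 (-1.27), Myh7 (-2.10) and Lgals9 (-0.60), and those above 0 were Bmper (1.11), Cxcl12 (0.61), Mmp9 (1.90), mt-Tt (1.87), Pafah2 (0.49) and Nudt13 (0.42). Damped rises were Lgals3 (-4.22), Arhgap22 (-2.24), Wisp1 (-1.69), Angptl7 (-1.87), Ddhd1 (-0.60), Ccnd2 (-0.47), Tgfbr1 (-0.44) and Loxl2 (-0.73), and damped falls were Scara5 (1.25), Rpl3l (0.61), Ldhd (0.56), Cxcl14 (1.28), Gstk1 (0.63), Scn4a (0.94), Acaa2 (0.46), Kcnj3 (0.60) and Scn4b (1.68). Enhanced responses were Ptk2b (1.22), Cep128 (-0.60), Adamts3 (-0.67), Abhd4 (0.35), Abhd18 (-0.70), Esd (0.37) and Plet1os (0.58). Gained responses were Kcne1 (-1.69), Pknox2 (-0.55), Rasd2 (-1.01), Ntng2 (0.84), Wnt11 (-0.98), Gbp9 (-0.73) and Iigp1 (-1.05), and reversed ones were Cmpk2 (-0.98), Pcdh19 (0.44), Prcp (-0.61), Parp14 (-0.52) and Shank1 (0.79).

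In 23 of 260 pairs of a named gene and a group (8.85%), 1 library stood apart from the rest of its group by Dixon's test, where chance gives about 1 in 20. In wt, replicate 4 stood apart in 6 genes, with Irf7 at 9.39 CPM, Mcm2 at 8.15, Lgals9 at 16.6, Abhd4 at 35.9, Loxl2 at 15.5 and Col1a1 at 213 CPM. Replicate 2 of wt stood apart for Scara5 (32.8 CPM), Acaa2 (680 CPM) and mt-Tt (8.43 CPM), and replicate 6 for Stk4 (26.1 CPM). In MstTg, replicate 1 stood apart for Tgfbr1 (57.5 CPM), Ntng2 (6.05 CPM), Abhd18 (21.0 CPM) and Esd (69.3 CPM), replicate 4 for Col3a1 (651 CPM), replicate 5 for Atp2a2 (8300 CPM) and replicate 6 for Ddhd1 (31.2 CPM). Gal3Ko replicate 8 stood apart for Angptl7 (5.16 CPM) and Loxl2 (14.1 CPM). Mst1Gal3 replicate 3 stood apart for Scn4a (8.82 CPM) and Ntng2 (9.73 CPM), and replicate 4 for Ccl2 (0.927 CPM) and Col1a1 (737 CPM). Without wt replicate 4 the interaction was called for 127 genes, 92 of them among the 100.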

How the results depend on the processing

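The interaction is a difference of 4 group means, and the number of genes called moved with the tool and the libraries used. The calls numbered 195 in DESeq2 (101 below 0, 94 above 0), all 100 of the edgeR calls among them, and 211 at an adjusted p below 0.1 (103 and 108). DESeq2 gave 55 lost, 80 damped, 48 enhanced or gained and 12 reversed responses, and the threshold of 0.1 gave 62, 88, 49 and 12. Enhanced or gained responses numbered 23 in limma-voom with quality weights, in which 9 interferon list genes were called, and reversed responses numbered 3 with library totals in place of TMM factors. Without the 6 libraries of high atrial genes 68 genes lay above 0 and 38 below 0, the opposite balance to the 44 and 56 of all libraries, 9 interferon list genes were called, and 33 genes were called for Gal3Ko against wt, which DESeq2 put at 89. The ratio of responses was 0.964 with library totals and 0.964 for genes of a 4-fold mean response. The cause of these shifts was not tested.

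Deviations of libraries that share a replicate number had a median correlation of 0.01, against 0 for other pairs. Of 34 same-number pairs, 11 had a correlation above 0.1 (range -0.28 to 0.23). No pairing by number was seen, and whether a weak one exists was not tested. With the replicate block the interaction was called for 51 genes (35 below 0, 16 above 0), 40 of them among the 100, with 21 lost, 20 damped, 7 enhanced or gained and 3 reversed responses and 8 interferon list genes.

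Without 1 library at a time, the interaction calls ran from 52 to 189, those below 0 from 31 to 87 and those above 0 from 19 to 102. Lost responses ran from 18 to 60, damped from 25 to 77, enhanced or gained from 6 to 36 and reversed from 1 to 16. The highest counts all came without MstTg replicate 5, and the lowest without Mst1Gal3 replicate 4 or 5. Interferon list calls ran from 8 to 18. Calls for Gal3Ko against wt ran from 38 to 80, for Mst1Gal3 against MstTg from 469 (without Mst1Gal3 replicate 1) to 1040, and the ratio of responses from 0.938 to 0.960.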
